A study of Mus musculus with 4 samples.

Results

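The genes described here encode the nuclear-made subunits of the mitochondrial respiratory chain and of ATP synthase. They were taken as every array name starting with Nduf, Sdha to Sdhd, Uqcr, Cox4 to Cox8 or Atp5. The rule found 82 genes with 113 probes among 27671 gene names on the array. By their known place in the chain, 35 encode subunits of complex I, 4 of complex II, 7 of complex III, 17 of complex IV and 15 of complex V, and 4 share only the name. These 4 are Ndufaf1 (a complex I assembly factor), Cox7a2l (which helps complexes join into supercomplexes), Atp5s (now Dmac2l) and Cox4nb (now Emc8, of the endoplasmic reticulum). Ndufa4 carries a complex I name but belongs to complex IV, and it was counted there.

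Male C57BL/6J mice, 8 to 12 weeks old, had either a permanent middle cerebral artery occlusion (PMCAO), made by a filament pushed up from the common carotid artery and left in place, or a sham operation that only exposed the neck vessels. Both arms also received saline into a cerebral ventricle, and the brains of 3 mice per group were collected 6 h or 24 h afterwards. Each time was measured on 2 two-colour Agilent arrays, each carrying PMCAO RNA in one dye and sham RNA in the other. The PMCAO RNA carried Cy5 on the array of sample 1 and Cy3 on that of sample 2. The design text puts the hemisphere opposite the blocked artery on the arrays, whereas the labels say brain only. How the RNA of the 3 mice was combined, and whether samples 1 and 2 were separate RNA, is not stated, and the p-values here therefore reflect only array-to-array spread, which may be technical.

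Complex I (NADH dehydrogenase) and complex II (succinate dehydrogenase) pass electrons to ubiquinone, complex III passes them to cytochrome c, and complex IV (cytochrome c oxidase) hands them to oxygen. Complexes I, III and IV pump protons, and ATP synthase, or complex V, makes ATP from the gradient. Neurons depend heavily on this route for ATP, and it needs the oxygen that an arterial block cuts off. A few core subunits are encoded by mitochondrial DNA. The array held no probe under the symbols of those 13 genes, so the values given here are of nuclear transcripts only.

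Each value below is a log2 ratio of PMCAO over sham, so that 0 is no difference and 1 is a doubling. The share of spots well above background ran from 66.3% to 73.7% in the PMCAO channel and from 67.3% to 73.6% in the sham channel. Of the 82 genes, 80 had a probe well above background and were tested in limma together with all 19128 detected genes. Every SE below is that of the limma fit, which took a gene's spread from all 4 arrays and moderated it by other genes. It is therefore the same at 6 h and 24 h, and the n beside it counts only the arrays averaged. The probes of Cox4i2 and Cox8c were not well above background in either channel of any array. All 13 neuron markers examined were detected, as were all 8 astrocyte and all 8 oligodendrocyte markers. In tissue RNA, fewer cells of a type and less RNA per cell cannot be told apart.

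Only 1 of the 80 genes passed the test, and it did so at 24 h. With a term for the dye orientation of the arrays in the same model, 9 genes passed at 24 h, 8 lower and 1 higher. That fit called 19.3% of all genes lower and 20.5% higher at 24 h, both larger shares than among the 80 genes. The 9 genes are named below, each with its adjusted p under that term. At 6 h none of the 80 genes passed the test at an adjusted p of 0.05 in limma, where 0.816% of all genes were called higher and 0.0366% lower. At 24 h none was called higher, against 7.84% of all genes. The only gene called lower at 24 h was Cox6a2, the heart and muscle isoform of a cytochrome c oxidase subunit, against 4.52% of all genes. No member's ratio differed between 24 h and 6 h by limma, where 1.29% of all genes were higher and 0.298% lower at 24 h. Without adjustment, no member reached p of 0.05 at 6 h or in the difference, and 1 higher and 5 lower did at 24 h. The same unadjusted threshold took 8.75% of all genes at 6 h, 14.2% in the difference and 28.8% at 24 h, and 7.5% of the members at 24 h.

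The values also lay close together. At 24 h the 80 ratios ran from -0.34 to 0.25 with a median of -0.08 and a standard deviation across genes of 0.11. Over all genes tested the range was -1.89 to 5.84, the median 0.00 and the standard deviation 0.39. At 6 h the members ran from -0.15 to 0.16 around a median of -0.04. At 24 h, 61 of 80 members lay below 0, or 76.2%, against 49.9% of all genes, and at 6 h 56 did, or 70.0%, against 51.9%. With median centring in place of loess the counts were 78 at 24 h but 12 at 6 h, so the side of 0 at 6 h depended on the scaling. The median of all genes was itself -0.09 at 24 h and 0.02 at 6 h in that setting. Below that median lay 72 members at 24 h and 23 at 6 h. These shares are descriptions of the arrays and were not tested. The 95% interval of the model lay inside a 2-fold change either way for 79 of 80 members at both times. Inside a 1.5-fold change it lay for 75 members at 6 h and 72 at 24 h. The exception at 2-fold was Cox6a1, whose interval at 24 h reached from -1.11 to 0.97.

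**Figure D1:**
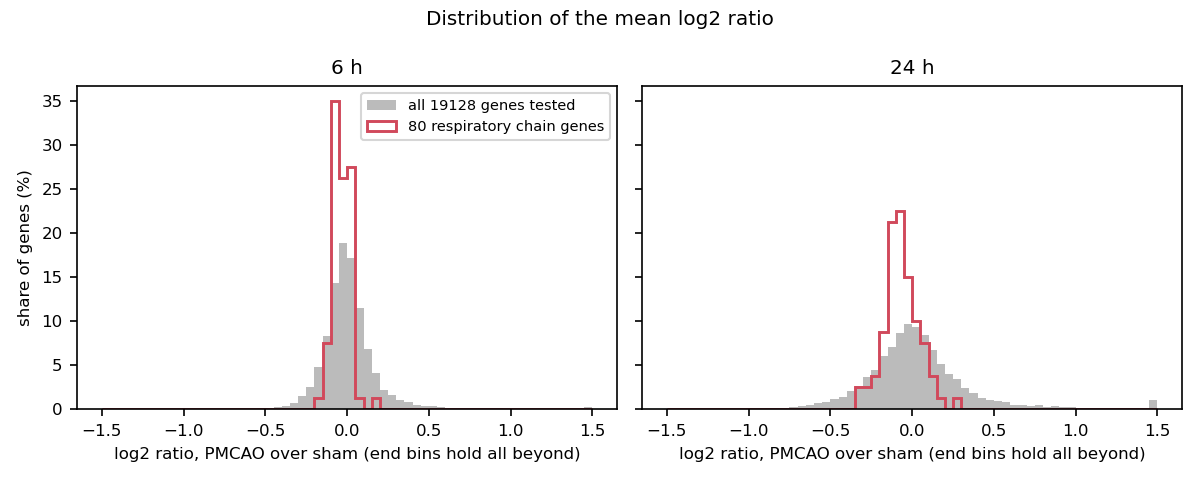
Share of genes (vertical axis, %) by mean log2 ratio of PMCAO over sham (horizontal axis) at 6 h and 24 h, for all 19128 genes tested (grey) and the 80 respiratory chain genes (red outline). The red outline stays between -0.34 and 0.25 at 24 h, while the grey bars spread on both sides of it.

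Complex I had no call at either time. Its 35 subunits had a median of -0.04 at 6 h and -0.06 at 24 h. At 6 h the ratios ran only from -0.10 for Ndufs8, an iron-sulfur core subunit, to 0.05 for Ndufb5, a membrane-arm accessory subunit. The 7 core subunits, which form the catalytic arm with its flavin and iron-sulfur centres, had a median of -0.03 at 24 h. The 28 accessory subunits had a median of -0.08.

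The lowest complex I ratio at 24 h belonged to Ndufb2, an accessory subunit of the membrane arm. Its arrays read -0.26 and -0.41 at 24 h and -0.01 and -0.14 at 6 h. Both arrays of 24 h lay below both of 6 h, but the difference between the times did not pass in limma (adjusted p = 0.449). The fitted ratio of -0.34 ± 0.09 (SE, n = 2 arrays) corresponds to 0.792 of the sham level and did not pass in limma (adjusted p = 0.0699), but did with the orientation term (adjusted p = 0.00279). The same was true of Ndufc1, another accessory subunit, which gave -0.23 at 24 h (adjusted p = 0.282 in limma, and 0.0196 with the term).

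Ndufa1, another accessory subunit of the membrane arm, had 2 probes. The brighter read 0.15 and -0.19 at 6 h and -0.05 and -0.54 at 24 h, and the dimmer gave -0.23 at 24 h where the brighter gave -0.30. Sample 2 was the lower array at both times. Its adjusted p in limma was 0.259 at 24 h and 0.00643 with the orientation term.

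Complex II links the citric acid cycle to the chain through 4 nuclear subunits, and none of them passed the test. Sdha, the flavoprotein that oxidises succinate, read 0.06 and -0.06 at 6 h and 0.04 and -0.15 at 24 h. Sdhb, the iron-sulfur subunit, read -0.06 and 0.11 at 6 h and -0.13 and 0.32 at 24 h. Every one of these pairs straddled 0.

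The membrane anchors did the same. Sdhc read -0.25 and 0.15 at 6 h and -0.28 and 0.38 at 24 h, and Sdhd read -0.27 and 0.05 at 6 h and -0.12 and 0.28 at 24 h. For both anchors and Sdhb the array of sample 2 was the higher one, which is the reverse of most other members. The fitted ratios at 24 h lay between -0.05 for Sdha and 0.09 for Sdhb, and a second Sdha probe gave 0.15 where the first gave -0.05. At 6 h the complex ran from -0.11 for Sdhd to 0.02 for Sdhb.

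Complex III had 7 subunits with a median of -0.02 at 6 h and -0.10 at 24 h, and none passed the test. Uqcr (now Uqcr11), its smallest subunit, was the lowest at both times and read -0.11 and -0.13 at 6 h and -0.15 and -0.24 at 24 h. All 4 arrays lay below 0, yet its ratio of -0.20 ± 0.08 (SE, n = 2 arrays) at 24 h did not pass in limma (adjusted p = 0.185, and 0.0394 with the orientation term). Uqcrc1, a core protein of the matrix side, was the highest at 24 h and read 0.05 and -0.13 at 6 h and 0.21 and 0.05 at 24 h. Its ratio of 0.13 had an adjusted p of 0.431 in limma, and its second probe gave 0.19. At 6 h the highest was Uqcrfs1, the Rieske iron-sulfur protein, at 0.05.

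Complex IV held the one call. Its 15 tested subunits had a median of -0.04 at 6 h and -0.09 at 24 h, and 13 of them lay below 0 at 24 h. At 6 h they ran from -0.15 for Cox6a2 to 0.05 for Cox6c. Several of its subunits exist as a ubiquitous isoform and as an isoform of heart and skeletal muscle or of testis, and these pairs were compared isoform by isoform within their own probes.

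Cox6a2 read -0.15 on both arrays of 6 h and -0.37 and -0.32 on those of 24 h. The 4 values did not overlap between the times, and the 2 arrays of a time were nearly equal. At 24 h the ratio was -0.34 ± 0.08 (SE, n = 2 arrays), or 0.788 of the sham level, with a 95% interval from -0.54 to -0.15. It passed the limma test at an adjusted p of 0.0491, while the difference from 6 h did not (adjusted p = 0.553). Its 1 probe lies at chr7:124302204-124302263 of build mm7 as the file headers give it. With the orientation term in limma its adjusted p at 24 h was 0.00254. Without that term, the call ended with median centring, with Agilent's processed signals, with the deposited series table ratios and in a fit of 24 h alone. It also ended without either array of 6 h or sample 1 of 24 h. Of 12 muscle markers 10 were detected, Ckm and Tnnt3 being the exceptions. Myh6, a heart myosin chain, fell by 0.54 at 24 h (adjusted p = 0.0167 in limma) and the other 9 were not called, with a list median of 0.08. The part of muscle-type transcripts in the Cox6a2 value was not tested.

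Cox6a1, the ubiquitous partner of Cox6a2, showed the largest disagreement between arrays of any member. It read 0.51 and -0.45 at 6 h and 0.77 and -0.90 at 24 h. The PMCAO sample appeared higher on sample 1 and lower on sample 2 at both times. The mean of the 2 arrays at 24 h was -0.07, with an SE of 0.42 from the limma fit of all 4 arrays.

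Cox7a2, the ubiquitous isoform of subunit 7a, read -0.03 and -0.10 at 6 h and -0.24 and -0.20 at 24 h. Its second probe gave -0.19 at 24 h where the first gave -0.22, so the probes ran the same way, but the adjusted p in limma was 0.149, and 0.0261 with the orientation term. The muscle isoform Cox7a1 read 0.02 and 0.01 at 6 h and 0.05 and 0.07 at 24 h, and was the highest complex IV subunit at 24 h. The related Cox7a2l read -0.02 and 0.06 at 6 h and -0.02 and 0.25 at 24 h. Without that term none of these 3 genes passed, and with it only Cox7a2 did.

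The other isoform sets gave no call. The subunit 4 isoform Cox4i1 read 0.00 and -0.15 at 6 h and 0.12 and -0.04 at 24 h, while its partner Cox4i2 was not well above background. Cox6b1 had fitted ratios of -0.02 at 6 h and -0.09 at 24 h, and its testis partner Cox6b2 had -0.02 and -0.06. Cox8a had 0.03 at 6 h and -0.07 at 24 h, and the muscle isoform Cox8b had -0.08 and -0.16.

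Cox7b read 0.12 and -0.26 at 6 h and 0.05 and -0.40 at 24 h. Its relative Cox7b2, listed under a clone name and so outside the 82 genes, gave -0.11 at 24 h (adjusted p = 0.499 in limma). Ndufa4 gave -0.10 at 6 h and -0.07 at 24 h.

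By the brightest probe of each gene, complex V was the most one-sided. All 15 subunits then had a ratio below 0 at 24 h, with a median of -0.13 and a range from -0.23 to -0.004. At 6 h 13 of 15 did around a median of -0.05, which turned to 0.04 with median centring. None passed the test. On single arrays of 24 h, 9 of 15 lay below 0 on sample 1 and 13 of 15 on sample 2, and 7 did on both. The side of 0 also depended on the probe. At 24 h dimmer probes gave 0.04 for Atp5a1, 0.13 and 0.14 for Atp5b, 0.06 and 0.22 for Atp5f1 and 0.09 for Atp5g2. That of Atp5h gave -0.13.

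Atp5k, subunit e of the membrane part, was the lowest at 24 h. It read 0.05 and -0.12 at 6 h and -0.20 and -0.26 at 24 h. Both arrays of 24 h lay below both of 6 h, but the difference between the times did not pass in limma (adjusted p = 0.599). The 24 h ratio of -0.23 ± 0.09 (SE, n = 2 arrays) did not pass in limma either (adjusted p = 0.161, and 0.0215 with the orientation term).

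The catalytic F1 head had 5 subunits with a median of -0.08 at 24 h, and the stalk and membrane part had 10 with a median of -0.13. The highest at both times was Atp5a1, the alpha subunit of the head, at 0.05 and 0.00. Atp5g1, the lowest at 6 h with -0.11, is 1 of 3 genes for the same mature c-ring subunit. At 24 h the 3 genes gave -0.02 for Atp5g1, -0.01 for Atp5g2 and -0.15 for Atp5g3. Atp5g3 itself read 0.42 on sample 1 and -0.72 on sample 2 at 24 h, so its mean rests on arrays that disagreed.

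Among the 4 genes that share only the name, Cox4nb was the highest of all members at both times. By its brighter probe it read 0.29 and 0.04 at 6 h and 0.31 and 0.19 at 24 h, above 0 on all 4 arrays. Its ratio of 0.25 ± 0.10 (SE, n = 2 arrays) at 24 h did not pass in limma (adjusted p = 0.167, and 0.0142 with the orientation term). The dimmer probe of Cox4nb gave only 0.11 at 6 h and 0.05 at 24 h. Atp5s read -0.05 and -0.08 at 6 h and -0.18 and -0.41 at 24 h, with a ratio of -0.29 (adjusted p = 0.107 in limma, and 0.00783 with the orientation term). Its second, dimmer probe gave -0.08. Ndufaf1 gave -0.09 at 6 h and -0.14 at 24 h.

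**Figure D2:**
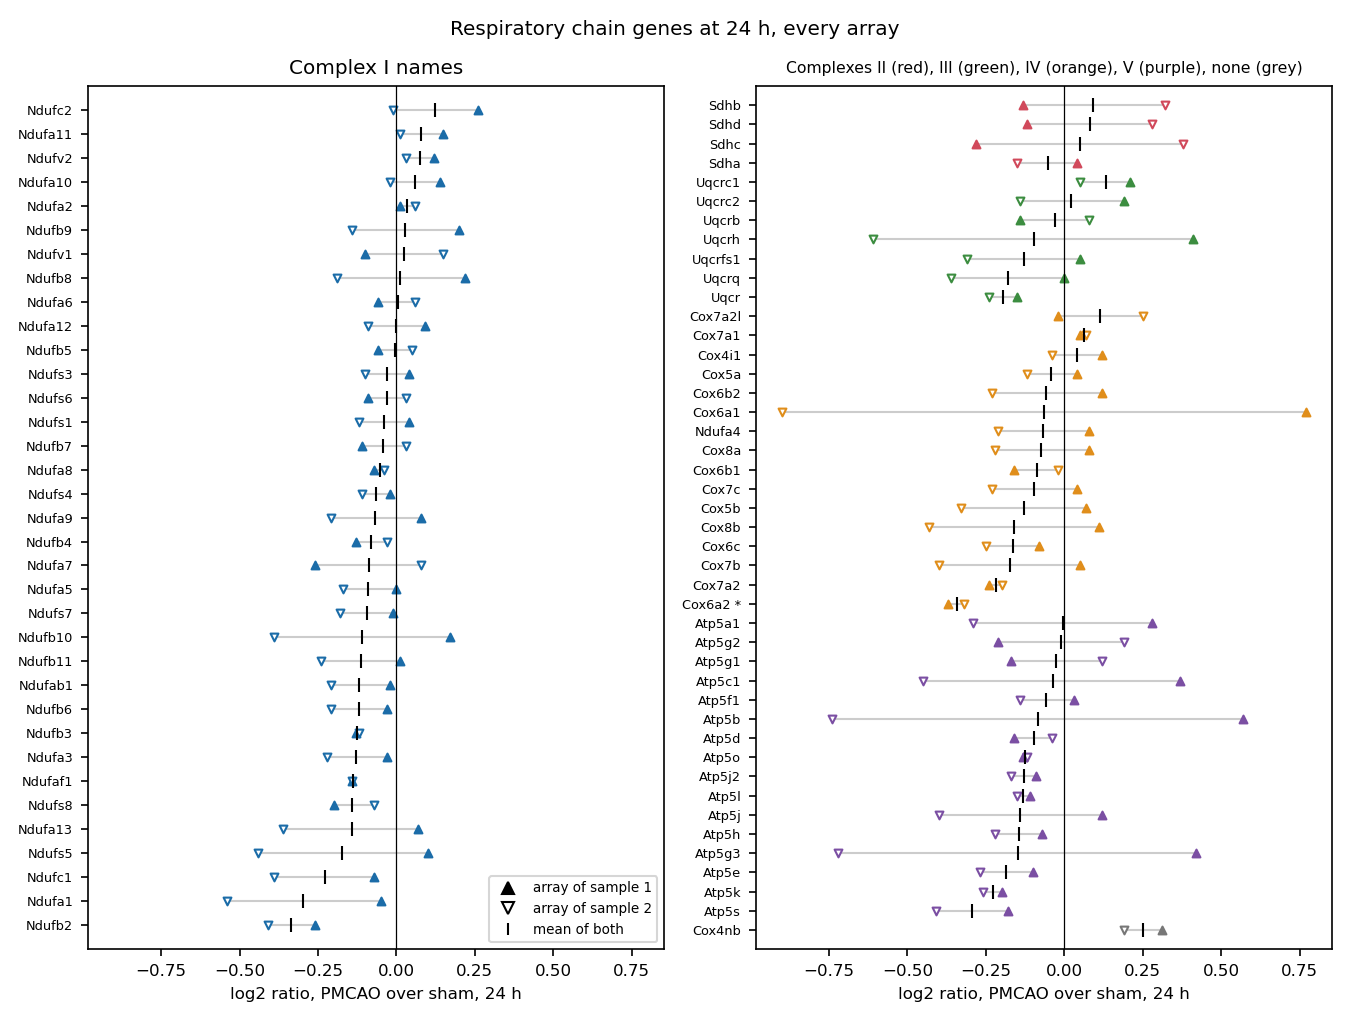
Log2 ratio of PMCAO over sham at 24 h (horizontal axis) for 79 of the 80 genes, with the array of sample 1 as a filled triangle, that of sample 2 as an open triangle and their mean as a bar. The asterisk marks Cox6a2, the one gene with an adjusted p under 0.05, and long grey lines such as that of Cox6a1 join arrays that disagreed.

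The 2 arrays of a time often disagreed for these genes. At 24 h the arrays of sample 1 and sample 2 gave the same sign for 33 of 80 members, or 41.2%, against 61.6% of all genes tested. At 6 h it was 27 of 80, or 33.8%, against 56.3%. Where the signs agreed at 24 h, 27 members were below 0 and 6 above. Over all 4 arrays, 12 members were below 0 throughout and 3 were above throughout.

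The disagreement followed the sample number, and with it the dye orientation. Sample 1 read higher than sample 2 for 62 of 80 members at 6 h and for 54 at 24 h, and the median gap was 0.13 and 0.17. The member medians of the 4 arrays were 0.02 and -0.12 at 6 h and -0.01 and -0.15 at 24 h, beside 0.02 and -0.02 at both times for all genes. At 24 h the gap exceeded 0.5 for 12 members, or 15%, and for 11.6% of all genes. The widest gaps at 24 h were 1.66 for Cox6a1, 1.31 for Atp5b, 1.14 for Atp5g3, 1.03 for Uqcrh and 0.82 for Atp5c1. In the other direction stood Sdhc at -0.66. The same genes had gaps of the same sign at 6 h.

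A gap set by the orientation would cancel in the mean of a time, since each time holds both orientations. One set by separate RNA need not cancel. Either widens the error of the mean. With a term for the orientation in the limma fit, 8 members were called lower and 1 higher at 24 h, against 19.3% and 20.5% of all genes. Whether the orientation or separate RNA set the gaps cannot be told apart.

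**Figure D3:**
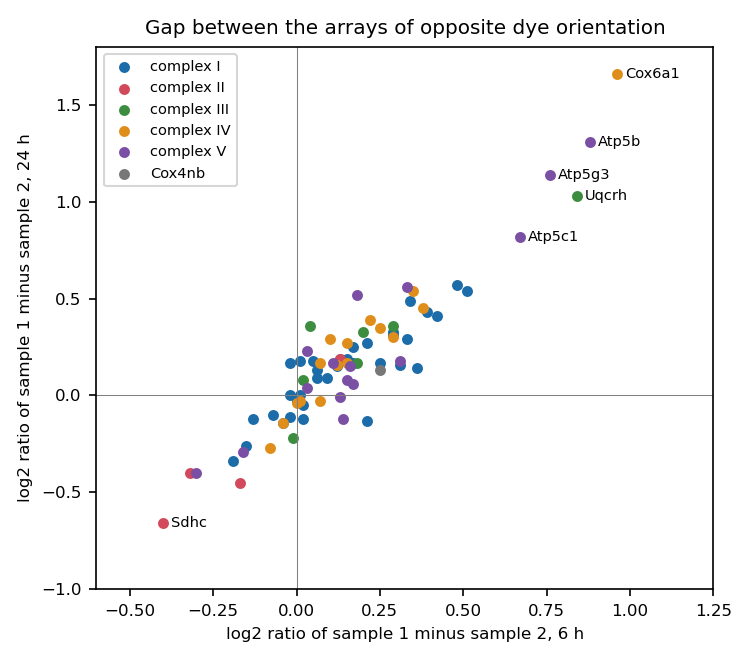
Log2 ratio on the array of sample 1 minus that of sample 2, at 6 h (horizontal axis) and 24 h (vertical axis), for 79 of the 80 genes, coloured by complex. Points lie along a rising line, with Cox6a1 at 0.96 and 1.66 at one end and Sdhc at -0.40 and -0.66 near the other.

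By complex, the median of II was lower on sample 1 than on sample 2 at both times, and that of every other complex was higher on sample 1. On the arrays of sample 1 and sample 2 at 24 h, complex II had -0.12 and 0.30. Complex I had -0.02 and -0.11, complex III 0.05 and -0.24, complex IV 0.05 and -0.23, and complex V -0.09 and -0.22. Complexes I and V were thus below 0 on both arrays of 24 h, and the others changed sign between them. The signs of complexes I and V at 24 h held under each normalisation and probe rule tried, and so did those of complexes III and IV. Median centring turned complex II at 24 h from 0.07 to -0.10 and turned the 6 h medians of all 5 complexes from below to above 0. With that centring the median of all genes was itself -0.09 at 24 h and 0.02 at 6 h.

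**Figure D4:**
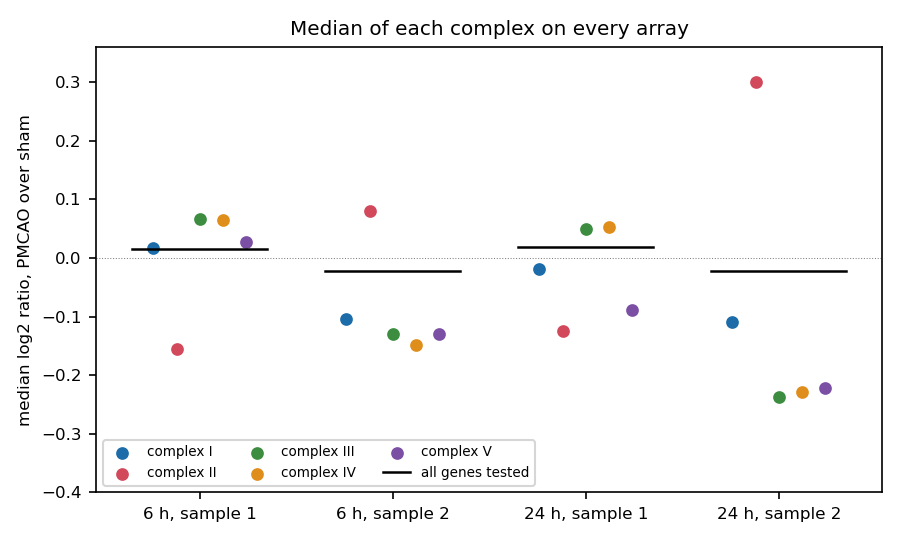
Median log2 ratio of the subunits of each complex (coloured points) on each of the 4 arrays, with the median of all genes tested as a black line. On the 24 h array of sample 2, complex II sits at 0.30 and the other complexes between -0.24 and -0.11.

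The gap also differed between probes of the same gene. Atp5b, the catalytic beta subunit of the F1 head, had 3 probes. The brightest, used for the gene, read 0.33 and -0.55 at 6 h and 0.57 and -0.74 at 24 h. The others read -0.11 and 0.36, and -0.24 and 0.52, at 24 h. The array that read higher with the first probe thus read lower with the others, and the fitted ratios at 24 h were -0.08, 0.13 and 0.14. The sequences of the other probes, called B and C, are shown because they carry the same gene name and accession as the first and gave a gap of the opposite sign at 24 h. At 6 h the gaps were 0.88 for the first probe, 0.02 for B and -0.32 for C. They are given 5′ to 3′ as on the array, with no base marked, and lie at chr10:127586901-127586960 and within chr10:127585810-127586488 of mm7.
Atp5b probe B: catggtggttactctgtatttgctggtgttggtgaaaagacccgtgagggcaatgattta
Atp5b probe C: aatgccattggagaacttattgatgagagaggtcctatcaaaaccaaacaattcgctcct
Their GC content was 45% and 40%. Across the 107 member probes above background, the gap at 24 h correlated with mean log2 intensity at a Pearson r of 0.23 and a Spearman rho of 0.42, and with the number of G and C bases at -0.15 and -0.22. At 6 h these values were 0.29 and 0.43 for intensity and -0.02 and -0.02 for G and C bases. These probes share the same 4 arrays, so the correlations are descriptions. The 45 probes with a mean log2 intensity of 15 or more had a median gap of 0.27 at 24 h, and the 62 dimmer ones 0.05.

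Of the 22 genes with more than 1 probe above background, 8 had probes on both sides of 0 at 24 h. They were Atp5a1, Atp5b, Atp5f1, Atp5g2, Ndufa3, Ndufa12, Ndufb8 and Sdha. The probe ratios of any 1 gene spanned at most 0.28 at 24 h, for Atp5f1, whose 3 probes gave -0.06, 0.06 and 0.22. For Ndufa3 they were -0.13 and 0.10, for Ndufb8 0.01 and -0.12, and for Atp5g2 -0.01 and 0.09. The probes of Atp5a1 gave 0.00 and 0.04 and those of Ndufa12 gave 0.00, 0.01 and 0.03. At 6 h, 6 genes had probes on both sides of 0.

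Many promoters of these genes hold short words known from factors that drive respiratory genes. RefSeq promoters of GRCm38.p6, from 250 bases before to 50 after the start, were matched for 67 of the 82 genes. The words searched are given here, each read on both strands. CGCATGCG, a core word of nuclear respiratory factor 1, was in 11.9% of the 67 and in 1.91% of all 27025 promoters. CCGGAAG, the core bound by ETS factors such as GABP, was in 23.9% and 9.12%. AAGATGGC, a core of YY1, was in 13.4% and 2.88%. At least 1 of the 3 was in 29 of the 67, or 43.3%, against 13.1% of all promoters.

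Medians at 24 h were set side by side with and without these words and not tested. The median was -0.06 for the 8 genes with CGCATGCG and -0.09 for the other 59, and -0.11 for the 16 with CCGGAAG and -0.08 for the other 51. For AAGATGGC it was -0.07 with the word in 9 genes and -0.09 without it in 58. A match describes letters and is not a binding site. The 150 bases before the start are shown for the lowest subunits of complexes V, III and I at 24 h, with any match in these 150 bases in capitals. Atp5k also had CCGGAAG and Uqcr also had CGCATGCG elsewhere in the searched 300 bases. That of Atp5k lies at chr5:108434400-108434549 on the minus strand, that of Uqcr at chr10:80406822-80406971 on the minus strand and that of Ndufb2 at chr6:39592415-39592564 on the plus strand.
Atp5k promoter, with CGCATGCG: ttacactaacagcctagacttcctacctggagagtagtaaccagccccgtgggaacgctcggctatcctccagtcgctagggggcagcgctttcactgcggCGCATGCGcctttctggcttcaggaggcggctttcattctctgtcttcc
Uqcr promoter, with CCGGAAG: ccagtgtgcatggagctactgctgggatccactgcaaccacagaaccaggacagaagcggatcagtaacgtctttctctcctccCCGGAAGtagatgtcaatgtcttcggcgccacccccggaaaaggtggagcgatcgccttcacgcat
Ndufb2 promoter, with no match: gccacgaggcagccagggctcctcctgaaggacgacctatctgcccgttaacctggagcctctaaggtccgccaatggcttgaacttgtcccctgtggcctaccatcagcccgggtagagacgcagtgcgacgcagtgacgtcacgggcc
The 3 genes had ratios of -0.23, -0.20 and -0.34 at 24 h, and none of these passed the test without the orientation term.

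Genes around the chain were set beside it, from lists of known function. Of 38 detected carriers and assembly factors, 2 fell at 24 h and none rose, with a median of -0.05. That is 5.26%, near the 4.52% of all genes called lower, and is not a result about the list. The 2 genes were Lyrm7, which read -0.38 and -0.39 at 24 h (adjusted p = 0.0453 in limma), and Bcs1l, which read -0.29 and -0.44 (adjusted p = 0.0493). Both factors act when the Rieske protein is put into complex III, and the Rieske gene Uqcrfs1 itself gave -0.13 at 24 h (adjusted p = 0.513).

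None of the 17 genes of pyruvate dehydrogenase and the citric acid cycle passed at either time by limma, and at 24 h none had an unadjusted p under 0.05, with a median of -0.03. None of the 14 regulators of mitochondrial biogenesis passed either, and at 24 h 1 higher and 1 lower had an unadjusted p under 0.05. Among these, Ppargc1a (the coactivator PGC-1alpha) gave 0.25 with an adjusted p of 0.205, Nrf1 gave -0.08 with 0.644, and Tfam, which packages and transcribes mitochondrial DNA, gave 0.30 with 0.262, all in limma at 24 h.

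Mitochondrial ribosomal proteins also had few calls. Of 78 genes, Mrps6 (0.68) and Mrps34 (0.47) rose and Mrps25 fell by 0.38 at 24 h, around a median of 0.00. That is 2.56% higher and 1.28% lower, beside 7.84% and 4.52% of all genes. Of 13 carriers of the mitochondrial membranes, 2 rose at 24 h and none fell, or 15.4% higher beside the same 7.84%. Ucp2, an uncoupling protein of the inner membrane, read 0.44 and 0.65 at 6 h and 1.2 and 1.68 at 24 h, and its ratio of 1.44 ± 0.14 (SE, n = 2 arrays) passed at 24 h (adjusted p = 0.00351 in limma). Slc25a13, an aspartate-glutamate carrier, rose at both times, by 0.69 at 6 h (adjusted p = 0.0369) and 0.49 at 24 h (adjusted p = 0.0218).

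Several markers of cell types did pass the test. At 24 h none of 13 neuron markers was called, with a median of -0.13, and none of 8 oligodendrocyte markers was, with a median of 0.06. Of 8 astrocyte markers 3 rose, but 4 lay below 0 and the list median was 0.05. Of 12 detected neutrophil and monocyte markers 9 rose, with a median of 1.00. Of all genes, 7.84% rose. Of 7 endothelial markers 3 rose and 1 fell, with a median of 0.54, and 1 of 3 detected red blood cell markers rose. Of 8 microglia markers 2 fell, where 4.52% of all genes fell. In that list 6 markers lay below 0 and 2 above, with a median of -0.225. The part of such shifts in the member ratios was not tested.

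Respiratory chain genes that the array lists under other names gave no call either. Those found through their accession after the values were seen included Ndufv3 (0.04 at 24 h), Uqcr10 (0.01), Atp5mpl (-0.22), Sdhaf1 (0.29) and Ndufaf2 (-0.27), with the smallest adjusted p at 24 h being 0.101 in limma for Ndufaf2.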

How the data were processed

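The authors deposited scanner tables of spot intensity values and log10 ratios, which per the file headers came from Agilent Feature Extraction version 9.5.3.1 and carry probe coordinates of mm7. The deposited series table holds a score, a signed linear ratio whose size equalled processed Cy5 over Cy3 for 100% of probes to 2 decimals. Its column medians were -0.96, 0.97, -0.92 and 0.96, and what its sign and any centring stand for is not given in the sources used here. A few lines that held a stray carriage return were split at it.

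From the deposited mean and background intensity, log2 ratios were computed in limma 3.58.1 under R 4.3.3 with normexp (offset 50) and loess within arrays, control spots at weight 0. Outlier-flagged spots (112 to 142 per array) were dropped and saturated spots (0 to 2) kept. Ratios were turned to PMCAO over sham, repeat spots were averaged by probe, and each gene was represented by its brightest probe. Genes entered the test if that probe exceeded background clearly on both arrays for 1 or more of the 4 RNA groups. limma fitted all 4 arrays, which lay on 1 slide with 1 scan, with 1 coefficient per time and their difference (2 residual and 3.53 prior degrees of freedom), and Benjamini-Hochberg adjustment over 19128 genes at 0.05. The number of arrays limits the precision.

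Of 41174 probes, 22951 were named by accession in a GRCm38.p6 RefSeq table, 6659 by symbol and 3109 by older symbol, and 8455 kept the file's name. Named members were those past the test, the highest and lowest per complex and time, and the isoform sets, with other members added after their values were seen. The values of 1 member are not reported here singly. The members and lists were chosen with earlier results of these data known. The fit was run on arrays simulated from the dye effects and spread of these data, which cannot check it against spread between animals. Alternatives were median centring, processed signals, no filter, the mean of probes, an orientation block, each time alone, the series table and leaving out each array. Plots used matplotlib 3.10.9.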

Additional observations from a re-analysis of the deposited data

How the results depend on the processing

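At 6 h no member was called under any alternative. At 24 h the count of members called lower, 1 as reported, was 0 with median centring, with Agilent's processed signals, with the series table values and with each time alone, and 1 without the dim filter and with the mean of all probes. Median centring called 13 of all genes higher and 0 lower at 24 h, and moved the median of all genes in the 24 h minus 6 h difference from 0.01 to -0.10 and that of the members from -0.04 to -0.31. It moved the complex I median at 6 h to 0.055 and the medians of complexes I and V at 24 h to -0.238 and -0.313, and the cause was not tested. The median of all genes was 0.018 at 6 h and -0.094 at 24 h in that setting. With the sample number as a replicate block, 8 members were called lower at 24 h (Ndufb2, Ndufa1, Ndufc1, Uqcr, Cox6a2, Cox7a2, Atp5k and Atp5s) and 1 higher (Cox4nb), and 7598 of all genes were called. Deviations of same-numbered arrays correlated between the times at 0.718 over 19117 genes and at 0.926 over the 80 members. With 2 numbers that each mark a dye orientation, neither value shows shared animals. Leaving out each array in turn, members called at 24 h ranged from 0 to 4 higher and from 0 to 16 lower, and in the difference from 0 to 2 higher and from 0 to 5 lower, where the largest counts stood beside 6.67% and 7.06% of all genes. The median of complex V at 24 h ranged from -0.222 to -0.088. The 16 lower came without sample 1 at 24 h and the 4 higher without sample 2 at 24 h, where 1 dye orientation remained and the lone array was assumed to vary like those of 6 h, beside 14.8% of all genes lower and 13% higher, and Cox6a2 lost its call without either array of 6 h and without sample 1 of 24 h. With 2 arrays per time, the 95% interval of a member reached 0.25 on either side of its ratio in the median and 1.04 at the widest, and Cox4i2 and Cox8c were too dim to test.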
